A study of Mus musculus with 9 samples.

Results

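The 9 genes Gata4, Gata6, Gata3, Sox17, Sox7, Foxa2, Eomes, T and Cdx2 encode transcription factors that specify endoderm, mesoderm or trophectoderm. They were taken by name out of the 22367 protein-coding genes of the annotation, and their chromatin accessibility was followed while mouse fibroblasts were reprogrammed to pluripotency. All 9 were found in the annotation. Accessibility was measured by ATAC-Seq, in which a transposase cuts and tags open DNA, with 1 library for each of 9 conditions. The cells were mouse embryonic fibroblasts (MEFs) that carry an IRES-EGFP reporter in the Oct4 gene and were infected with retroviruses for Oct4, Sox2, Klf4 and c-Myc (OSKM). Reprogramming took place, per the labels, in a medium of Knockout Serum Replacement with LIF, ascorbic acid, bFGF and CHIR99021. D0 was the MEFs themselves, grown in medium with fetal bovine serum. D3 was the unsorted culture on day 3 of OSKM, D6T- and D9T- were Thy-1-negative cells of days 6 and 9, and D12S+ and D16S+ were SSEA-1-positive cells of days 12 and 16. The iPSCs were the pluripotent end point. D6 siH3.3 and D6 siNT were day 6 OSKM cultures given siRNA against the histone H3.3 genes or a non-targeting siRNA. Per the study, this knockdown was made at the start of reprogramming and was transient, limited to the early phase. The labels of these 2 libraries describe them as Thy-1-negative, whereas the study's list of libraries gives them no sorting marker. With 1 library per condition, no test between conditions was possible, and every interval covers counting error only.

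Endoderm and mesoderm arise at gastrulation, when cells that express the T-box factors Eomes and T (Brachyury) pass through the primitive streak. Gata6, Gata4, Sox17 and Sox7 are also expressed in the primitive endoderm, the extraembryonic layer that lies next to the pluripotent epiblast of the blastocyst. Foxa2 is a pioneer factor of definitive endoderm and its derivatives, such as liver and gut. Cdx2 is required for trophectoderm and later patterns the posterior embryo and the intestine, and Gata3 acts in trophectoderm, in T cells and in several epithelia. GATA factors are known to be able to stand in for Oct4 in some reprogramming cocktails, and this group of genes is silent or lowly expressed in pluripotent cells.

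For each gene, the regions called open were collected from 20 kb upstream of the transcription start site (TSS) to 20 kb past the end of the gene. Regions of different libraries that overlapped were joined into elements, of which the 9 windows held 83. The sequences below are the 200 bases around the highest summit of 8 elements, read on the plus strand of mm9 (NCBIM37). They are shown because they carry the 3 patterns described below, namely open in nearly all libraries, open in MEFs and not in iPSCs, and open in iPSCs and not in MEFs. Capitals mark the letters of the motifs searched on both strands: TGANTCA for AP-1, ATGCAAA for the octamer, ACAATGG for Sox factors, AGATAA for GATA factors, GGAATG for TEAD, TGTGGTT for RUNX, GGGTGTG for Klf factors and AGGNGGC for a CTCF core. The first 4 elements were called in 8 or 9 libraries.
Gata3, 1.11 kb upstream of the start of a short transcript (chr2:9801238-9801437): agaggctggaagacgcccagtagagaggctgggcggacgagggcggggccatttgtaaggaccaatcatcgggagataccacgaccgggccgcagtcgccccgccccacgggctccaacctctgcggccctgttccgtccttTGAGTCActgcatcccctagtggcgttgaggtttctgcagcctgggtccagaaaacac
Eomes, 3-prime flank (chr9:118398810-118399009): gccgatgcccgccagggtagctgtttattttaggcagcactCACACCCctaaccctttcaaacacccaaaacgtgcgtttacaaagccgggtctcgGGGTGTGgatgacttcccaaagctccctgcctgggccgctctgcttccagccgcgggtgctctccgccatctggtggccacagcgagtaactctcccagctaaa
Cdx2, 3-prime flank (chr5:148104771-148104970): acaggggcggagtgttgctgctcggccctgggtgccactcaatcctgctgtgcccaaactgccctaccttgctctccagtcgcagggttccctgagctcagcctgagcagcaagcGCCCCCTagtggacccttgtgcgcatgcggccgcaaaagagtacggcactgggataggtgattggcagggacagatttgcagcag
Foxa2, promoter (chr2:147874294-147874493): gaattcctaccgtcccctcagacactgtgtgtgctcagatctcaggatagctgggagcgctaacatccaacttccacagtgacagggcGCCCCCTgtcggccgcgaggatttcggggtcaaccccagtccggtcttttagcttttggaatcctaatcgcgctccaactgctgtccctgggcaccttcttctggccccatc
The next pair was called in MEFs and not at D16S+ or in iPSCs.
Sox7, 3-prime flank (chr14:64581667-64581866): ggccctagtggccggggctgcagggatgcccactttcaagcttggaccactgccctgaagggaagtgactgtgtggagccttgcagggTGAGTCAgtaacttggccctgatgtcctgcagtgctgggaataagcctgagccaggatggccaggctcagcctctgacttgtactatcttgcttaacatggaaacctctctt
T, 3-prime flank (chr17:8648613-8648812): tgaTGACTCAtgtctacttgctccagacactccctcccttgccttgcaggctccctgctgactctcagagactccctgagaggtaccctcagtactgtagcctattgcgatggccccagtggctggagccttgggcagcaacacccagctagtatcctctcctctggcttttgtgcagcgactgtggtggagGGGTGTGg
The last pair was called at D16S+ and in iPSCs and not in MEFs.
Sox17, gene body (chr1:4483049-4483248): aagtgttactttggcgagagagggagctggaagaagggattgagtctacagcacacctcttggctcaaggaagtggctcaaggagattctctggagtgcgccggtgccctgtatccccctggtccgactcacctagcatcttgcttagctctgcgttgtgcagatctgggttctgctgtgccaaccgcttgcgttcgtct
Gata4, start of the shorter transcripts (chr14:63864295-63864494): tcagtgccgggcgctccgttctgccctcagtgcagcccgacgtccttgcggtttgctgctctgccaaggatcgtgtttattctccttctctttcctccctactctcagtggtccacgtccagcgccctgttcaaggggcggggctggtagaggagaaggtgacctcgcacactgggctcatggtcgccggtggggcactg
The Gata3, Sox7 and T stretches hold AP-1 letters, the T stretch also holds 1 Klf match and the Eomes stretch holds 2. The Cdx2 and Foxa2 stretches hold the CTCF core letters, and those of Sox17 and Gata4 hold none of the 8 motifs. The Sox7 and T stretches have 1 and 2 CG dinucleotides, against 8 to 14 in the other 6.

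The unit throughout is the pileup, the number of extended tags stacked on the highest summit of a region, per 1000000 total tags of that library (CPM). The libraries held between 13213117 (D9T-) and 31714845 (D0) tags and between 36708 (D9T-) and 133132 (D6T-) merged regions. The lowest pileup called anywhere in a library, its detection limit, lay between 0.331 (D3) and 0.53 (D9T-) CPM. A gene without a region in a library was therefore below that limit, which is not the same as closed. The libraries differed in overall signal. At the 9818 promoters that were open in all 9 libraries the median pileup was 0.946 CPM at D0, 2.28 (D3), 3.83 (D6T-), 1.51 (D9T-), 2.44 (D12S+), 2.31 (D16S+) as well as 1.2 (iPSCs). It was 1.38 (D6 siNT) and 1.45 (D6 siH3.3). Each value in CPM was therefore also divided by this median, which gives the relative pileup, printed for the main elements. The detection limit differs on that scale too. The lowest pileup called was 11 tags at D0, 10 (iPSCs) and 8 (D6T-), beside medians at shared promoters of 30, 32 and 82 tags. A called element could thus read much lower at D6T- than at D0 or in iPSCs. The highest summit of a window is a maximum over several, which its interval does not cover. Fewer open cells and weaker opening in every cell cannot be told apart in bulk chromatin.

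Most of the lineage factors had some open chromatin in or around the gene in every library. All 9 had a region in the window at D0, D3, D6T- and in iPSCs. The count was 8 at D12S+, D16S+ and in D6 siNT, 6 in D6 siH3.3 and 5 at D9T-. Among all protein-coding genes the share with a region in the same window was 83.2% (D0), 87.2% (D3), 88.9% (D6T-), 74.1% (D9T-), 83.3% (D12S+), 83.4% (D16S+), 83.1% (iPSCs), 77.5% (D6 siNT) and 77.6% (D6 siH3.3). The members' share was below this background at D9T- and in D6 siH3.3 and above it in the other 7 libraries. With 9 members these differences rest on few genes and are no trait of the group. The D9T- library, which lacked Gata6, Sox17, Sox7 and Foxa2, had the fewest tags and the highest detection limit. Promoters, the 3 kb upstream of any annotated TSS, were open for 6 members at D0, 8 (D3), 7 (D6T-), 2 (D9T-), 5 (D12S+), 7 (D16S+), 8 (iPSCs), 4 (D6 siNT) and 3 (D6 siH3.3). The matching shares of all genes were 58.0%, 67.8%, 68.3%, 50.4%, 63.0%, 63.0%, 63.9%, 54.8% and 54.3%. The members' share was below these at D9T-, D12S+ and in both siRNA libraries and above them in the other 5, again on few genes. Gata3 had a promoter region in all 9 libraries, whereas T had none in any. In iPSCs, T was the one member without an open promoter.

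The signal at the members was low for most of them. The median over the members with a region was 0.694 CPM at D0, 2.29 (D6T-) and 0.865 (iPSCs). Over all genes with a region it was 1.01, 3.37 and 1.13. The plot of the highest summit of each gene in each library shows Gata3 above the all-gene median throughout and the other 8 mostly below it.

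**Figure D1:**
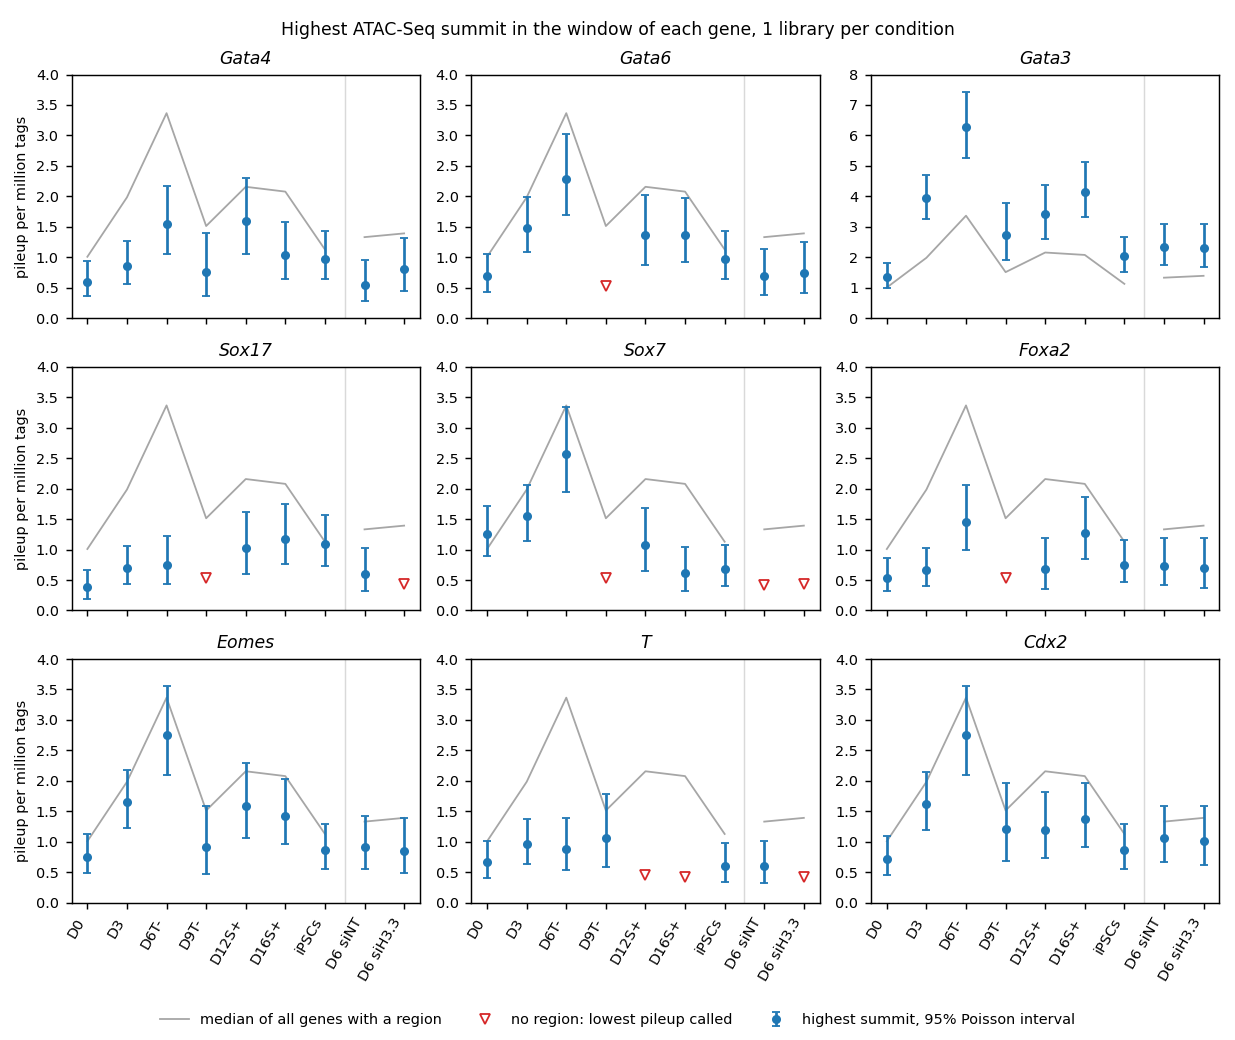
Highest pileup in CPM (per 1000000 total tags) in the window of each gene (y axis, linear; the Gata3 panel has a taller axis) in the 9 libraries (x axis). Points carry 95% Poisson intervals, open triangles mark libraries without a region at their detection limit, and the grey line is the median of all protein-coding genes with a region. Gata3 lies between 1.36 and 6.26 and above the grey line in all 9 libraries, and T has no region at D12S+, D16S+ and in D6 siH3.3.

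Gata3 was the most accessible member in every library. Its gene lies at chr2:9778705-9811661 on the minus strand, and its highest region was the same element everywhere, chr2:9799793-9801665, inside the longest transcripts and 1.11 kb upstream of the start of a shorter one. The pileup there was 1.36 (D0), 3.94 (D3), 6.26 (D6T-), 2.72 (D9T-), 3.41 (D12S+), 4.16 (D16S+), 2.03 (iPSCs), 2.34 (D6 siNT) and 2.3 (D6 siH3.3) CPM. D0 was lowest and D6T- highest, and the 8 OSKM-derived libraries all lay above D0. Relative to shared promoters the values were 1.43 (D0), 1.63 (D6T-), 1.4 (D12S+) and 1.69 (iPSCs), a much smaller difference than in CPM, and D12S+ was then below D0. The element also overlaps the promoter of the neighbouring gene 4930412O13Rik, and its signal cannot be assigned to either gene. A second Gata3 element, 0.545 kb inside the long transcripts (chr2:9810703-9811642), overlaps the promoter of 9230102O04Rik and was called in 8 libraries, from 0.536 at D0 to 1.54 (D6T-). The iPSCs held 11 Gata3 regions and D0 held 4, and elements at 36.9, 18.7 and 15.3 kb downstream of the TSS were called there at 0.414, 0.489 and 0.64 and not at D0.

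Gata6, the primitive endoderm factor, was open at its TSS in 8 of 9 libraries. The gene covers bases 11052508 to 11085633 of chromosome 18 on the plus strand. At the TSS element the pileup was 0.631 (D0), 1.49 (D3), 2.29 (D6T-), 1.36 (D12S+), 1.37 (D16S+), 0.978 (iPSCs), 0.689 (D6 siNT) and 0.75 (D6 siH3.3) CPM, and D9T- had no region in the whole window. The value at D6T- was the highest (95% Poisson interval 1.69 to 3.03, 49 tags). Divided by the shared-promoter median, the TSS element read 0.667 (D0), 0.598 (D6T-), 0.592 (D16S+) and 0.812 (iPSCs). At D0 the highest Gata6 region was instead a MEF-only element 5.91 kb upstream, at 0.694 (22 tags), and the TSS element held 20 tags, within counting error of it. Elements 12.8 and 12.3 kb upstream were both called in iPSCs at 0.64, and the second also at D12S+ at 0.454.

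Gata4, a partner of Gata6 in endoderm and a heart factor, was accessible mainly away from its outermost TSS. Gata4 covers chr14:63817759-63890529 on the minus strand. The highest region in 6 of 9 libraries, tied in D6 siNT, was chr14:63812043-63813043, past the end of the gene, which overlaps the promoter of the DNA repair gene Neil2 and was not called at D0. The strongest element that belongs to no other gene's promoter was intronic, chr14:63874237-63875204, 15.6 kb inside the longest transcript. Its pileup was 0.347 (D0), 0.86 (D3), 1.36 (D6T-), 1.53 (D12S+), 0.992 (D16S+), 0.978 (iPSCs) and 0.551 (D6 siNT) CPM. The D0 value is the detection limit of that library, and the OSKM libraries in which it was called lay above it. Its relative pileup was 0.367 (D0), 0.354 (D6T-), 0.628 (D12S+) and 0.812 (iPSCs). The element at the start of the shorter transcripts (chr14:63863881-63864776) was called at 0.595 (D3), 0.748 (D6T-), 0.738 (D12S+), 0.85 (D16S+) and 0.677 (iPSCs) and not at D0, with relative values from 0.195 (D6T-) to 0.562 (iPSCs). The opposite pattern held for 5 Gata4 elements that were called at D0 and in none of D12S+, D16S+ and iPSCs. Of them 2 overlap the promoter of Neil2, and one lay 10.3 kb upstream, with 0.599 (D0) and 0.795 (D6T-).

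Sox17, the SOX factor of primitive and definitive endoderm, had an element in its body that was called late and not in MEFs. It is encoded at chr1:4481009-4486494 on the minus strand. This element, chr1:4481781-4483874, read 0.695 (D3), 0.748 (D6T-), 1.02 (D12S+), 1.18 (D16S+) and 1.09 (iPSCs) CPM, and it was not called at D0, at D9T- or in either siRNA library. Any signal at D0 lay under the limit of 0.347. The relative pileup was 0.304 (D3), 0.195 (D6T-), 0.419 (D12S+), 0.51 (D16S+) and 0.906 (iPSCs). From D6T- onwards each later library in which it was called had a higher relative value. The highest summit lay 3346 bases from the TSS at D16S+, against 4538 (D6T-), 4361 (D12S+) and 4282 (iPSCs). The D16S+ value therefore belongs to another site within the joined element, which is the site of the sequence above. The Sox17 promoter element chr1:4486410-4487336 was weak, at 0.529 (D3), 0.654 (D6T-), 0.489 (iPSCs) and 0.597 (D6 siNT). The one Sox17 region at D0 was 7.5 kb downstream of the TSS, at 0.378 (12 tags).

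Sox7, a second SOX factor of the same subgroup with roles in primitive endoderm and vessels, had its main element in MEFs and early in the course. Sox7 covers chr14:64562511-64569569 on the plus strand. Its strongest element was 19.3 kb downstream of the TSS, chr14:64581465-64581992, at 1.26 (D0), 1.55 (D3), 2.57 (D6T-) and 1.08 (D12S+) CPM. It was not called at D9T-, D16S+, in iPSCs or in the siRNA libraries. Any signal in iPSCs lay under the limit of 0.376. The relative pileup was 1.33 (D0), 0.681 (D3), 0.671 (D6T-) and 0.442 (D12S+), so the high value in CPM at D6T- was a lower relative value than at D0. An upstream element 13.4 kb from the TSS (chr14:64548926-64549252) read 0.977 (D0), 0.695 (D3) and 0.608 (D6T-) and was not called later, and its relative pileup was also highest at D0, with 1.03 against 0.304 (D3) and 0.159 (D6T-). The promoter itself behaved otherwise. The TSS element chr14:64562040-64563070 was called at 0.41 (D0), 0.397 (D3), 0.748 (D6T-), 0.614 (D16S+) and 0.677 (iPSCs), and its relative value was 0.433 (D0) and 0.562 (iPSCs). In D6 siNT, which shares its day and label with D6T-, no Sox7 region was called, where D6T- had 5.

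Foxa2, the pioneer factor of endoderm, had more regions late in the course. The gene lies at chr2:147868613-147872705 on the minus strand, and its window held 2 regions at D0, 3 (D3), 6 (D6T-), none at D9T-, 4 (D12S+), 7 (D16S+) and 7 (iPSCs). The promoter element 1.69 kb upstream (chr2:147873960-147874909) was present in 8 libraries at 0.536 (D0), 0.662 (D3), 1.45 (D6T-), 0.681 (D12S+), 1.04 (D16S+), 0.752 (iPSCs), 0.551 (D6 siNT) and 0.696 (D6 siH3.3) CPM. The values other than D6T- had overlapping intervals and lay between 0.536 and 1.04, the latter on 22 tags. The D6T- interval, 0.985 to 2.06, lay above that of D0, 0.312 to 0.858, and overlapped that of D3, 0.404 to 1.02. Relative to shared promoters this element read 0.567 (D0), 0.378 (D6T-), 0.449 (D16S+) and 0.625 (iPSCs), so that D6T- was no longer highest. An element just inside the gene, chr2:147871341-147872600, read 0.43 (D3), 0.701 (D6T-), 0.568 (D12S+), 1.28 (D16S+), 0.752 (iPSCs) and 0.536 (D6 siH3.3) and was highest at D16S+. Its relative pileup was 0.188 (D3), 0.551 (D16S+) and 0.625 (iPSCs). Elements 6.45 kb upstream and 6.04 kb downstream of the TSS were called at D16S+ (0.567 and 0.708) and in iPSCs (0.564 and 0.489) and not at D0, D3 or D6T-. Of the 15 elements of all members that were open at D16S+ and in iPSCs and not at D0, 5 were at Foxa2.

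Eomes, a T-box factor of the primitive streak and trophoblast, had 2 of its 7 elements open in all 9 libraries. Eomes covers chr9:118387330-118395250 on the plus strand. The TSS element chr9:118387369-118389097 was called in all 9 libraries at 0.441 (D0), 1.03 (D3), 1.4 (D6T-), 0.757 (D9T-), 0.908 (D12S+), 0.897 (D16S+), 0.79 (iPSCs), 0.689 (D6 siNT) and 0.803 (D6 siH3.3) CPM. Its relative values were 0.467 (D0), 0.366 (D6T-) and 0.656 (iPSCs), with D6T- the lowest of the 9 libraries and iPSCs the highest. The detection limit at D0, 11 tags, is 0.367 on this scale, so a value as low as that of D6T- could not be called there. The element 11.6 kb downstream of the TSS (chr9:118398508-118399247) was also called in all 9, at 0.536 (D0), 0.761 (D3), 2.24 (D6T-), 0.908 (D9T-), 1.14 (D12S+), 0.85 (D16S+), 0.602 (iPSCs), 0.597 (D6 siNT) and 0.75 (D6 siH3.3). The relative values of this flank element were 0.567 (D0), 0.585 (D6T-), 0.367 (D16S+) and 0.500 (iPSCs). The highest region of the window in 7 libraries, 28.0 kb downstream, overlaps the promoter of Golga4, a Golgi gene, and read 0.757 (D0) and 2.76 (D6T-), or 0.8 and 0.72 relative to shared promoters. One element, 18.9 kb downstream (chr9:118405994-118406493), was called at D16S+ (0.85) and in iPSCs (0.865) alone, and it was the highest Eomes region of the iPSCs.

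T, the Brachyury factor of primitive streak and mesoderm, had no open promoter. The gene lies at chr17:8627288-8635361 on the plus strand. No library had a region over its promoter or inside the gene. Its main element was 21.4 kb downstream of the TSS (chr17:8648359-8648858), at 0.599 (D0), 0.959 (D3), 0.888 (D6T-), 1.06 (D9T-) and 0.597 (D6 siNT) CPM. The 5 values rest on 13 to 29 tags and their intervals overlap. The element was called in none of D12S+, D16S+, iPSCs and D6 siH3.3, and D12S+ and D16S+ had no region in the whole window. Relative to shared promoters it read 0.633 (D0), 0.42 (D3), 0.232 (D6T-) and 0.70 (D9T-). In iPSCs the window held 2 other regions, one 4.19 kb upstream of the TSS at 0.602 (16 tags) that no other library had.

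Cdx2, the trophectoderm factor, had an element in its 3-prime flank that was open in all 9 libraries and an intermittent one at its start. The gene lies at chr5:148112381-148118846 on the minus strand. The flank element chr5:148103919-148105306, 14.0 kb from the TSS, was called in all 9 libraries at 0.631 (D0), 1.62 (D3), 2.76 (D6T-), 1.21 (D9T-), 1.19 (D12S+), 1.37 (D16S+), 0.828 (iPSCs), 1.06 (D6 siNT) and 1.02 (D6 siH3.3) CPM. The relative values were 0.667 (D0), 0.72 (D6T-), 0.488 (D12S+) and 0.688 (iPSCs). A second flank element, chr5:148110676-148111605, was called in the 7 libraries of the time course, at 0.694 (D0) and 0.865 (iPSCs), and in neither siRNA library. The TSS element chr5:148117542-148119034 was called at 0.662 (D3), 0.625 (D12S+), 0.85 (D16S+) and 0.527 (iPSCs), and not at D0, D6T-, D9T- or in the siRNA libraries. Its relative values lay between 0.256 (D12S+) and 0.438 (iPSCs). An element 8.11 kb upstream (chr5:148126488-148127262) ran the other way, with 0.631 (D0), 0.794 (D3), 2.24 (D6T-), 0.908 (D9T-) and 0.911 (D6 siH3.3) and no call at D12S+, D16S+, in iPSCs or in D6 siNT. Relative to shared promoters it was highest at D0, with 0.667.

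Among the 83 elements, which cluster in the windows of 9 genes, the shares called in 1 library alone and in all 9 were near those among all genes. An element was called in 1 library alone for 34 of 83, beside 46.0% of the 154404 elements in the windows of all protein-coding genes. It was called in all 9 libraries for 4, the Gata3 and Cdx2 elements and the 2 Eomes elements above, beside 7.43%. Elements called at D0 and in none of D12S+, D16S+ and iPSCs numbered 17 of 83, beside 20.5% of all. They were spread over Gata4 (5), Sox7 (4), T (3), Gata6 (2), and Sox17, Foxa2 and Cdx2 (1 each), with none at Gata3 or Eomes. Elements called at D16S+ and in iPSCs and not at D0 numbered 15 of 83, a larger share than the 7.51% of all elements. They lay at Foxa2 (5), at Gata4, Gata3, Eomes and Cdx2 (2 each), and at Gata6 and Sox17 (1 each), with none at Sox7 or T. Of the 21 elements called in 5 or more libraries, 14 had their highest value in CPM at D6T-, the library with the highest signal at shared promoters. The matching share over all elements was not counted, so this count is no trait of the members. The heat map of the elements shows these groups gene by gene.

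**Figure D2:**
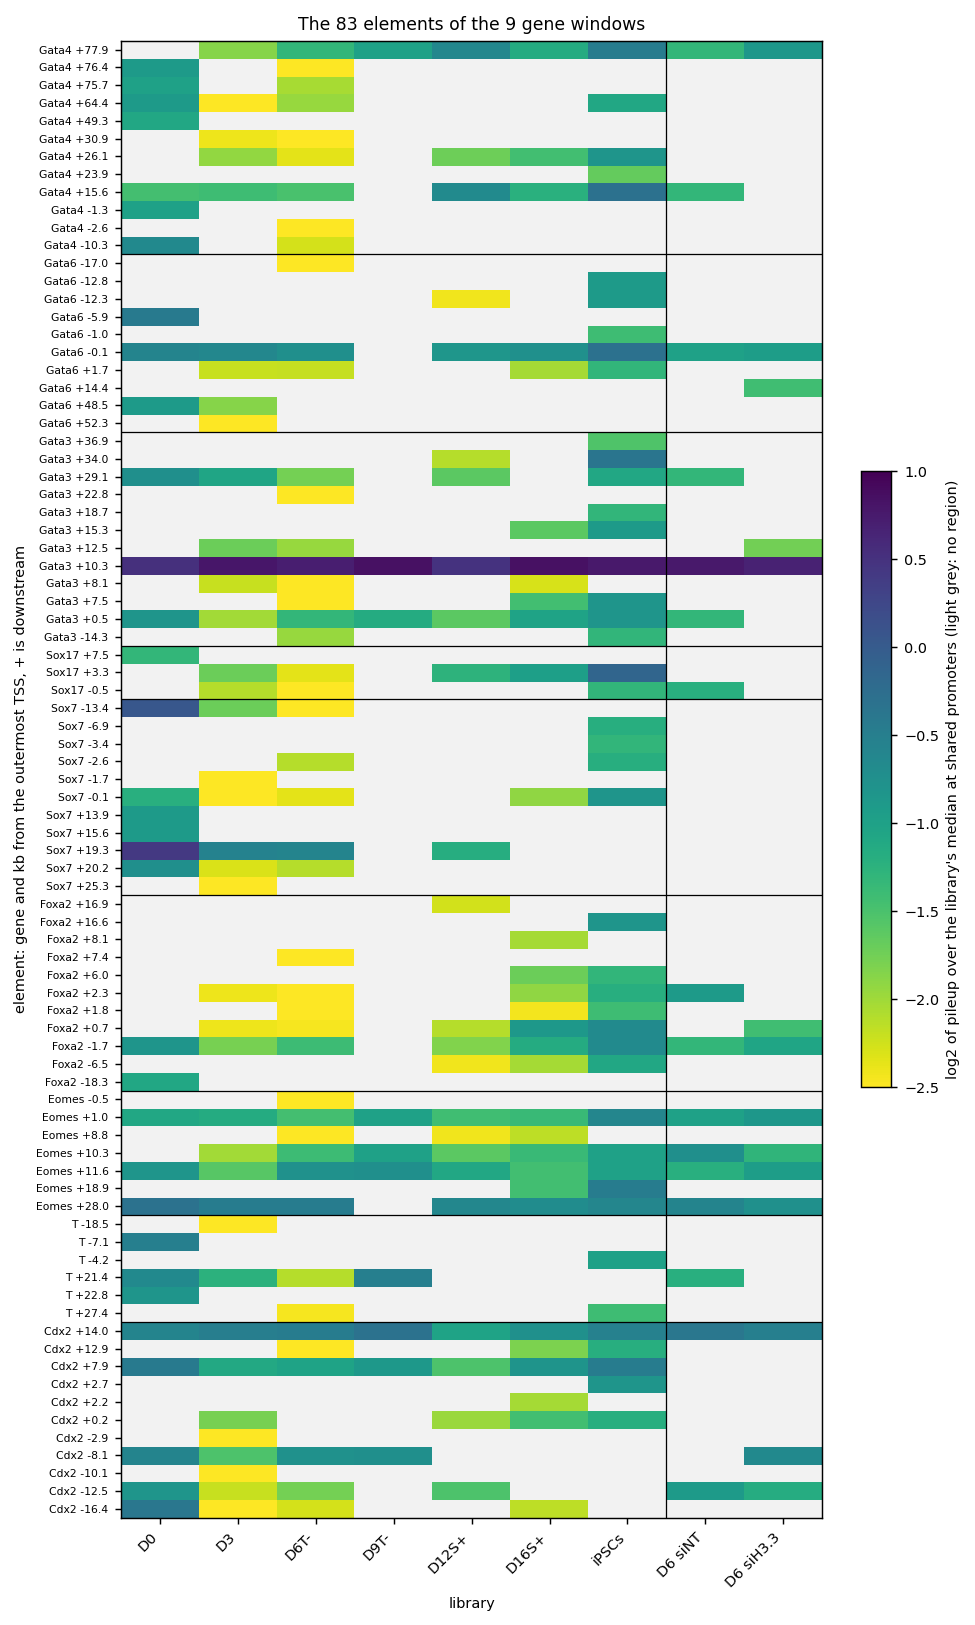
The 83 elements (rows, named by gene and by the distance of their highest summit from the outermost TSS in kb, plus for downstream) in the 9 libraries (columns). Colour is the log2 of the pileup over the library's median at shared promoters, and light grey means no region. The Gata3 element at +10.3 kb and the Cdx2 element at +14.0 kb are filled across all 9 columns, the Sox7 element at +19.3 kb is filled to D12S+ except at D9T-, and most Foxa2 rows are filled at D16S+ and in iPSCs.

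The letters of the AP-1 motif, bound by Fos and Jun factors that are abundant in fibroblasts, were counted in the same groups. They stood within 200 bases around the summit in 10 of the 17 elements open at D0 and not late (58.8%), beside 32.3% of the 44885 such elements of the genome. They stood in 2 of the 15 elements open late and not at D0 (13.3%), beside 6.45% of 15807. By library, 12 of 36 member regions held them at D0 (33.3%), 15 of 51 at D6T- (29.4%), 4 of 28 at D12S+ (14.3%), 2 of 36 at D16S+ (5.56%) and 4 of 48 in iPSCs (8.33%). The shares over all regions of those libraries were 27.2%, 33.8%, 16.6%, 6.39% and 6.08% in the same order. The CTCF core letters were in 17 of the 83 elements (20.5%), beside 17.6% of the 210151 elements of the genome, and the Klf letters were in 11 (13.3%, beside 8.03%). GATA letters were in 6 elements (7.23%, beside 7.36%), TEAD letters in 10 (12.0%, beside 15.2%), RUNX letters in 6 (7.23%, beside 5.88%), Sox letters in 4 (4.82%, beside 4.11%) and octamer letters in 2 (2.41%, beside 4.40%). The motifs are short, so that these shares describe letters and not binding. The median number of CG dinucleotides in the 200 bases was 4 for the member elements and 2 for all elements.

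**Figure D3:**
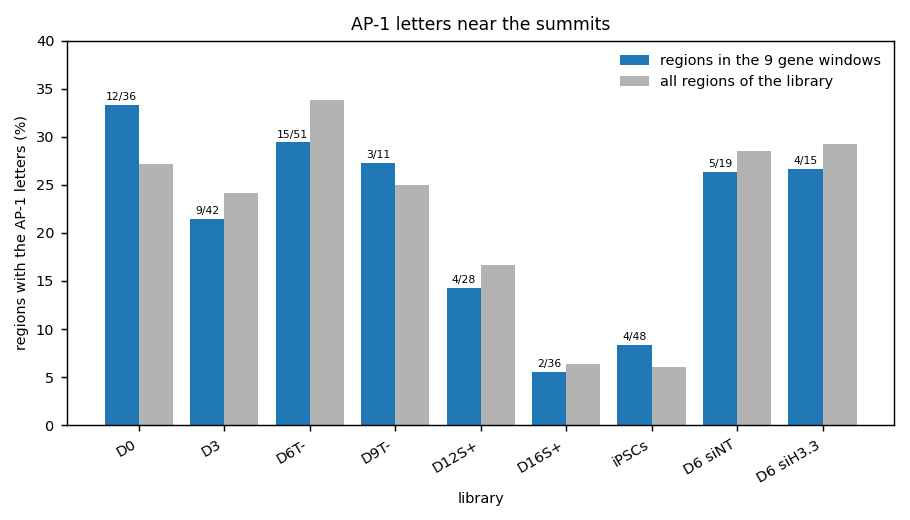
Share of regions whose 200 bases around the summit hold the AP-1 letters (y axis, percent) in each library (x axis), for the regions in the 9 gene windows (blue, with counts) and for all regions of the library (grey). Both are under 10% at D16S+ and in iPSCs, against 33.3% and 27.2% at D0.

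Next, the libraries were compared step by step by the ratio of the highest pileup in CPM in each window, with a difference past 2-fold called. At D3 over D0, 4 members were called higher (Gata6, Gata3, Eomes and Cdx2), beside 50.0% of all genes, and the largest ratio was Gata3 at 2.9-fold (95% interval 2.03 to 4.22). With regions over promoters of other genes left out, Gata3 and Eomes were not called, with log2 ratios of 0.943 and 0.936. The highest regions of Gata6 and Cdx2 at D0 and at D3 were different elements. At D6T- over D3, Foxa2 was called higher at 2.19-fold (95% interval 1.21 to 4.06), beside 26.9%. Over the whole span from D0 to D6T-, 7 members were called higher, all but Sox17 and T, beside 84.4%. At D9T- over D6T-, 7 members were called lower, beside 70.2%. Of the 7, Gata6, Sox7 and Foxa2 had no region at D9T- and give lower bounds, as does Sox17, at least 1.41-fold lower, which is therefore not an exception, and T was not lower. The first 3 counts are no larger a share than that of all genes and the last is 7 of 9, and the median log2 ratio over all genes was 1.80 for D6T- over D0 and -1.25 for D9T- over D6T-. Relative to shared promoters none of these members was called in these directions, which for the bounds at D9T- decides nothing. On that scale Sox17 and T were called lower at D6T- over D0, with log2 ratios of -1.04 and -1.60, and T was called higher at D9T- over D6T-, with 1.60.

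At D12S+ over D9T-, Gata4, Gata6 and Sox7 were called higher, beside 18.3%, of which Gata6 and Sox7 had no region at D9T- and give lower bounds. None of the 3 was called when scaled to shared promoters. T was called lower, at least 2.33-fold, beside 1.39% of all genes. It rests on 14 tags at D9T- and was not called by fold enrichment or with windows of 10 or 50 kb. Scaled to shared promoters it stayed past 2-fold, with a log2 ratio of -1.91. D12S+ over D6T- had Sox7, Foxa2 and Cdx2 lower, beside 26.8%, none of which was called when scaled, whereas Sox17 was then higher with a log2 ratio of 1.10. D16S+ over D12S+ had no member past 2-fold. In iPSCs over D16S+ only Gata3 was called, 2.05-fold lower (95% interval 1.44 to 2.93), beside 34.9%, and none was lower when scaled to shared promoters, where Sox7 and T were higher with log2 ratios of 1.08 and 1.44, the latter a bound. Between the ends of the course, iPSCs over D0, Sox17 was the one member called higher, at 2.88-fold (95% interval 1.43 to 6.2), beside 8.07% of all genes. The highest regions in D0 and iPSCs were different elements for every member but Gata3, so most of these ratios do not follow the same site. Scaled to shared promoters, Sox17 stayed higher with a log2 ratio of 1.18, and Sox7 was called lower with a log2 ratio of -1.25. The direction of Sox7 turned with the window, since its log2 ratio in CPM was -0.90 with 20 kb and 0.42 with 10 kb, which leaves out the element 19.3 kb downstream. The other 7 members lay between -0.49 and 0.36 when scaled to shared promoters. These comparisons share libraries, so they are not independent of each other.

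**Figure D4:**
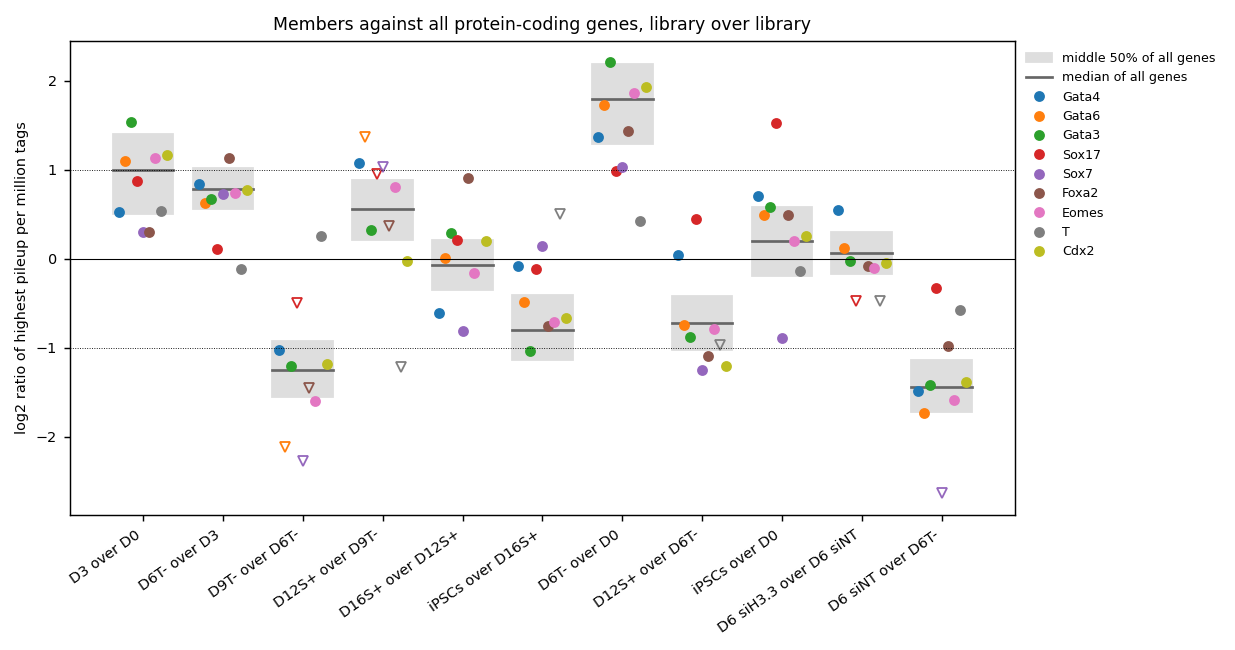
Log2 ratio of the highest pileup in CPM (y axis) for the 9 members in 11 comparisons of libraries (x axis). Filled circles are ratios of called regions, open triangles are bounds from a library without a region, grey boxes and bars are the middle 50% and the median of all protein-coding genes, and dotted lines mark 2-fold. Most members lie in or near the grey boxes, and Sox17 stands highest in iPSCs over D0 at 1.53.

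Cells of day 6 with the early, transient knockdown of H3.3 were compared with their non-targeting control. Whether H3.3 was still depleted in them on day 6 was not measured here. No member was called in either direction for D6 siH3.3 over D6 siNT. The 6 members with a region in both libraries had ratios from 0.933 (Eomes, 95% interval 0.452 to 1.9) to 1.46 (Gata4, 0.637 to 3.41). Gata3, with the most tags, had a ratio of 0.984 (0.64 to 1.51). The intervals of the other 5 reach past 2-fold in some direction, so that a difference of that size was not excluded at this depth. Sox17 (13 tags) and T (13 tags) had a region in D6 siNT alone, close to the limit of 9 tags, and Sox7 had one in neither library. At D6 siNT over D6T-, 6 members were called lower, beside 83.0% of all genes, with a median log2 ratio of -1.44 over all genes. Scaled to shared promoters, Sox7 was called lower with a log2 ratio of -1.16, a bound, and Sox17 higher with 1.15.

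Ranks within a library do not depend on its scale and were added after the data had been seen. They do depend on how many genes had a region, since genes without one rank lowest. That share was 83.2% at D0, 88.9% (D6T-), 74.1% (D9T-) and 83.1% (iPSCs) for the windows. Gata3 lay between percentile 78.3 (D0) and 91.0 (D16S+) of all protein-coding genes. Sox17 lay at percentile 17.0 (D0), 21.8 (D3), 14.7 (D6T-), 29.8 (D12S+), 35.5 (D16S+) and 53.9 (iPSCs). Sox7 lay at 73.3 (D0), 44.9 (D3), 42.6 (D6T-), 31.6 (D12S+), 19.1 (D16S+) and 27.3 (iPSCs). Gata6 lay between 30.3 and 46.4, Eomes between 35.6 and 47.5, and Cdx2 between 34.5 and 48.6. Gata4 lay between 24.6 and 46.4, Foxa2 between 19.6 and 38.2, and T between 16.7 and 42.3 where it had a region. Sox7 at D0 and Sox17 in iPSCs were thus the 2 places outside Gata3 where the highest region of a member's window exceeded percentile 50. Ranked by promoter regions instead, Gata6 lay between 52.9 (D6 siNT) and 65.1 (iPSCs) where it had one. Foxa2 and Eomes also exceeded percentile 50 by promoter in some libraries, up to 54.9 (Foxa2, D16S+) and 53.1 (Eomes, D9T-). At D9T- only 50.4% of all genes had a promoter region, and Eomes read 0.757 CPM beside a median of 1.36 over those genes. Foxa2 at D16S+ read 1.28 beside a median of 1.84. Gata6 was also below the median of open promoters wherever it had one, with 0.978 beside 1.02 in iPSCs.

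**Figure D5:**
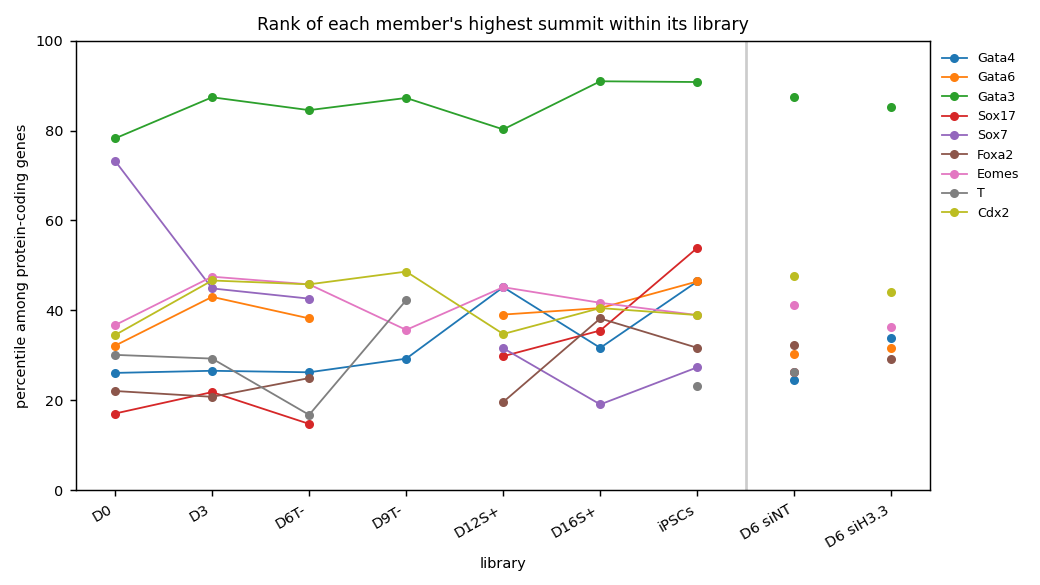
Percentile of each member's highest pileup among all protein-coding genes of the same library (y axis, 0 to 100) in the 9 libraries (x axis). Genes without a region rank lowest. Lines join the time course, and a missing point means no region. Gata3 stays above 78, Sox17 goes from 17.0 at D0 to 53.9 (iPSCs), and Sox7 goes from 73.3 at D0 to 27.3 (iPSCs).

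Promoters of other genes of the same lineages were counted in the same way. Of 17 further endoderm genes, 9 had an open promoter at D0, 14 (D3), 13 (D6T-), 5 (D9T-), 13 (D12S+), 15 (D16S+), then 13 (iPSCs). Beside the shares of all genes given above this was lower at D0 and D9T- and higher in the other 5. In iPSCs the highest of them were Lama1, a laminin of basement membranes, at 1.35 CPM and the forkhead factor Foxa3 at 1.20. Of 29 further genes of mesoderm, primitive streak and trophoblast, 12 had an open promoter at D0, 17 (D3), 15 (D6T-), 6 (D9T-), 14 (D12S+), 14 (D16S+), then 17 (iPSCs), which was below the share of all genes in each of these 7 libraries (58.0% at D0, 63.9% in iPSCs). In iPSCs the highest were Isl1, a factor of heart progenitors, at 1.96 and the T-box factor Tbx20 at 1.39. Of the 29, 8 had no promoter region in any library, among them Mesp1, Mesp2, Msgn1 and Evx1, streak and early mesoderm factors that were picked out after their values were seen. The matching share over all genes was not counted, so this count is no trait of the list. Other streak genes of the list had a promoter region, Tbx6 in 8 libraries, Wnt3 in 5, Nodal in 3, Fgf8 in 2 and Mixl1 in 1. By the highest pileup in the window for iPSCs over D0, 2 endoderm genes were past 2-fold higher and 2 lower of 17, and 1 higher and 1 lower of 29, with median log2 ratios of -0.02 and 0.18 beside 0.20 for all genes.

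Marker genes checked the labels. Of 8 pluripotency genes, 1 had an open promoter at D0, 7 (D12S+), and 8 at D16S+ and in iPSCs, with a summed promoter pileup of 0.567 CPM at D0, 14.6 (D16S+) and 9.29 (iPSCs). Of 8 fibroblast genes, 7 were open at D0 and 4 (iPSCs), where Col1a2, Prrx1, Postn and Fap were not called. Prrx1 was not called at D0 either. Most of the fibroblast promoters open in both libraries had a higher pileup in CPM in iPSCs than at D0. Promoters of 4 blood genes were open in no library, and 1 of 3 neural promoters was open at D0 and 3 at D16S+ and in iPSCs. The 3 endothelial promoters were open at D0 and at D6T-, with summed pileups of 1.26 and 4.02, and 2 of them in iPSCs, with 1.09. At D9T- none of the endothelial promoters was open, and at D16S+ 1 was, at 0.85. The sums and the Sox7 values in CPM were both highest at D6T-, as was the median at shared promoters. Whether endothelial cells had a part in the Sox7 values was not tested.

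Finally, the genes whose highest pileup ran most like each member over the 9 libraries were listed. For Sox17 they were Nup62cl and 2410017I17Rik (Pearson's r 0.985 and 0.975), and for Sox7 they were Plbd1 and Pbld1 (0.990 and 0.983). Gata4 ran most like Iqcf6 and Rpl4 (0.978 and 0.978), Gata6 like Gm17441 and Ctgf (0.990 and 0.984) and Gata3 like 4930444G20Rik and Sypl (0.994 and 0.994). Foxa2 ran most like Zbtb40 and Sh3gl2 (0.966 and 0.960), Eomes like Tmbim6 and Eif5b (0.997 and 0.996) and Cdx2 like Tomm34 and 6330578E17Rik (0.993 and 0.993). T had the weakest match, with Olfr1380 and Tub at 0.90 each. These are the highest over all candidate genes, and all points share the library-wide signal described above.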

How the data were processed

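ATAC-Seq peak files of 9 libraries were used, 1 per condition. Per the study's methods, the authors aligned reads to mm9 with STAR, keeping unique matches, and removed duplicates with Picard. Per the file headers, they used MACS2 (2.1.0.20151222) for peak calls with no control library and a q-value limit of 0.05, extending tags of 51 bp to 200 bp. The deposited pileup is a signal in tags at the summit, not scaled for depth. Fold enrichment, as deposited, is that pileup as a ratio over the genome background of the library. The deposited -log10 p and -log10 q values are those of the peak caller. The methods state that mitochondrial reads were removed, whereas peaks on that chromosome are in the files, so that the total tags used for scaling may include such reads, to an extent not known here.

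Summits of one peak were merged into a region, and regions of all libraries that overlapped by 1 bp into elements. Each gene window ran from 20 kb upstream of the TSS to 20 kb past the gene end (GENCODE on NCBIM37, the same build). The highest pileup was divided by the total tags of the library, given in the file headers. Poisson and conditional binomial intervals (95%) are exact. Ratios past 2-fold were called, and a missing region was set to the lowest pileup called in that library, as a bound in 1 direction. No test was made, since no condition had a replicate. The calculation was tested on simulated data. Python 3.11.15, numpy 2.4.6, pandas 2.3.3, scipy 1.17.1 and matplotlib 3.10.9 were used.

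The members and the gene lists (endoderm, mesoderm, fibroblast, pluripotency, neural, blood and endothelial genes) were chosen with earlier results of these data known. From each list at most 4 genes were to be named, those with the highest value in the library described, and 2 genes of most similar course per member. Sox1 of the neural list was not matched. Foxf1 and Tfap2c were found under older symbols. Alternatives changed the window, the promoter, the peak threshold, the overlap, the scale and the measure. The ranks and the CTCF core motif were added after the data had been seen.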

Additional observations from a re-analysis of the deposited data

How the results depend on the processing

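No paired analysis was possible because each condition had 1 library. The counts of members changed most with the scale. Scaled to shared promoters, the members called higher became 0 at D3 over D0, at D6T- over D3, at D12S+ over D9T- and at D6T- over D0, 1 at D9T- over D6T-, at D12S+ over D6T- and at D6 siNT over D6T-, and 2 for iPSCs over D16S+. Those called lower became 0 at D9T- over D6T-, at D12S+ over D6T- and for iPSCs over D16S+, 1 for iPSCs over D0 and D6 siNT over D6T-, and 2 at D6T- over D0. Fold enrichment left 0 higher at D6T- over D3, and 0 lower at D12S+ over D9T- and for iPSCs over D16S+. Windows of 10 kb gave 1 lower at D3 over D0, 3 higher at D6T- over D3 and 0 lower at D12S+ over D9T-. Windows of 50 kb gave 0 lower at D12S+ over D9T- and 2 lower for iPSCs over D16S+. Sums over regions gave 3 higher at D6T- over D3, 6 at D12S+ over D9T-, 1 at D16S+ over D12S+, 2 for iPSCs over D16S+ (0 lower) and 4 for iPSCs over D0, and 5 lower at D12S+ over D6T-. Without promoters of other genes, 2 were higher at D3 over D0 and at D6T- over D3, 0 lower for iPSCs over D16S+, and 3 had a region in the window at D9T-.

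Keeping the stronger 50% of regions left window regions for 3 members at D9T- and in D6 siNT, and promoter regions for 2 at D0, 5 at D3, 3 at D12S+ and 1 at D9T-, in D6 siNT and in D6 siH3.3. With the same number of strongest regions, open promoters numbered 2 at D0, 3 at D3 and 4 at D6T-. With a common detection limit they numbered 3 at D0 and 5 at D3. With the outermost TSS alone they numbered 5 at D3, 0 at D9T-, 2 at D12S+, 4 at D16S+ and 5 in iPSCs, and by region midpoint 1 at D9T-. The cause of these differences was not tested. Most member regions rest on fewer than 30 tags, which limits the ratios that can be resolved.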
